A study of Rattus norvegicus with 4 samples.

Results

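Immediate early genes are the genes a cell transcribes first after a hormone, growth factor or stress reaches it, before any new protein has to be made. The 10 genes described here were chosen by name: the AP-1 subunits Fos, Fosl1, Jun, Junb and Jund, the related factor Atf3, the zinc finger factor Egr1, the orphan nuclear receptors Nr4a1 and Nr4a3, and the growth inhibitor Btg2. Their measurements were all probe sets that the platform annotation pairs with exactly 1 gene symbol among these names. That gave 21 of the 8799 probe sets and 9 of the 10 genes (of 4737 named genes on the array), since Btg2 was paired with none. Of the 21, 16 probe sets of 7 genes were bright enough to be tested, and the single probe sets of Fosl1 and Jund were not.

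The samples were testes of male Sprague Dawley rats, an outbred laboratory strain, given either sheep antibody against rat FSH (follicle-stimulating hormone) or a non-specific sheep immunoglobulin (control IgG) for the same 4 days. There were 2 RNA samples from antibody rats and 2 from control rats, each on 1 Affymetrix rat U34 array (set A). The labels disagree on age, since the source names give day 18, the treatment protocol gives collection on day 22 and the series text starts treatment on day 14. Antibody replicate 2 is titled with postnatal day 4 and no treatment, so its group rests on its source name. The extraction protocol speaks of about 20 pooled ovaries per RNA sample while each source name gives testis and 1 animal, so p-values measure the spread between these RNA samples only. Every array gave signal for Sycp3, a synaptonemal complex protein of meiotic germ cells. Its intensities were 795 and 574.2 on the antibody arrays and 750.6 and 922.3 on the control arrays. This gene marks meiotic germ cells and does not by itself settle which organ was used.

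FSH acts on Sertoli cells, which support the germ cells, through a receptor that raises cyclic AMP. Cyclic AMP activates protein kinase A, which phosphorylates the factor CREB bound at cyclic AMP response elements (CRE), and growth factors act on the same genes through kinases and the serum response factor at the CArG box. In cultured rat Sertoli cells FSH is known to raise Fos and Junb transcripts for a short time, after which they decay. A whole testis also holds Leydig cells, macrophages, endothelium and germ cells, and in such a bulk sample a change in the number of cells of a type cannot be told apart from a change in RNA per cell.

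Promoter windows running from 250 bases before to 50 bases after the gene start were taken from a table of RefSeq sequences on build GRCr8 and were analysed for 6 of the 10 genes (Fosl1, Junb, Jund, Egr1, Nr4a1 and Btg2). Those of Fos, Jun, Atf3 and Nr4a3 were not analysed here. Of the 6, the windows of Egr1, Nr4a1, Junb and Jund are shown as examples. They are printed 5′ to 3′ along the gene, with capitals on the CRE core TGACG on either strand, the CArG box and the EGR site GCGGGGGCG on either strand.
Egr1, chr18:26736828-26737127, plus strand: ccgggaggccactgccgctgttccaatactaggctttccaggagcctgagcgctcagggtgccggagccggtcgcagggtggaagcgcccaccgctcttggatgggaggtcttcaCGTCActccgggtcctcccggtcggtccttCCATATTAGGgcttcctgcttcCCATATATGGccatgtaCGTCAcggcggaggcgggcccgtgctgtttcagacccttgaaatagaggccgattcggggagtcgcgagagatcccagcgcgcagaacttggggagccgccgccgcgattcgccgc
Nr4a1, chr7:134259888-134260187, plus strand: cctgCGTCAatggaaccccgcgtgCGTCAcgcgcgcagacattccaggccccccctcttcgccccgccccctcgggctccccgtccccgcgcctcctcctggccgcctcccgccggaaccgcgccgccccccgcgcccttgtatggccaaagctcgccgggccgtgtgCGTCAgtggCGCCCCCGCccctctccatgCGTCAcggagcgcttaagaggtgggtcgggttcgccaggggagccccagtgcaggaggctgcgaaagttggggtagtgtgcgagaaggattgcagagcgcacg
Junb, chr19:40080876-40081175, plus strand: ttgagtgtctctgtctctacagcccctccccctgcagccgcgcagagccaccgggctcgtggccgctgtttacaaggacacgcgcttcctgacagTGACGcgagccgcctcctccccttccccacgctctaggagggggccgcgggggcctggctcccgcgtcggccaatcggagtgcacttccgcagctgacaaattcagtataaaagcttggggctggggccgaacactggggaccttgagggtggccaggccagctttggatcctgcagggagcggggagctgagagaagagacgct
Jund, chr16:18769722-18770021, minus strand: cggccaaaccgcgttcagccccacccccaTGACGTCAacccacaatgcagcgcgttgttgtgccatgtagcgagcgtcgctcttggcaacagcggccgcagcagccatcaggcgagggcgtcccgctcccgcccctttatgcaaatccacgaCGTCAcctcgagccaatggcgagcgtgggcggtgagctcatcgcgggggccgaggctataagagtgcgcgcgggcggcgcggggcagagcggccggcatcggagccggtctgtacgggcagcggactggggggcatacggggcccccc

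The CRE core was found in all 6 windows, against 21.2% of the 33469 promoters of the same length. Nr4a1 held 4 copies, Jund 3, Egr1, Fosl1 and Btg2 2 each, and Junb 1. The full CRE, TGACGTCA, which holds the core on both strands, was in Jund at position -221 and in Btg2 at position -201 from the start, against 1.83% of promoters. Egr1 alone of the 6 held CArG boxes, 1 at position -105 and 1 at position -83, a motif found in 1.64% of promoters, and Nr4a1 alone held the EGR site, found in 2.73%. The AP-1 site TGACTCA (4.63% of promoters) and the NR4A response element AAAGGTCA (1.43%) were in none of the 6. These are matches of letters in a short window, and no binding was measured.

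The question was whether these genes differ in the testis between rats given the FSH antibody and rats given control IgG, labelled as 4 days of treatment. No member passed the test across all probe sets. In the limma fit, adjusted by Benjamini-Hochberg over the whole table, 0 of the 16 tested probe sets had an adjusted p under 0.05, against 0.267% of all 5244 tested (14 probe sets, 6 higher and 8 lower with the antibody), and the members' adjusted p-values lay between 0.353 and 0.952. At an unadjusted p under 0.05 there were 6 of the 16, 4 higher and 2 lower, against 8.1% of all tested probe sets. That count of members moved with the processing. It was 3 with quantile normalization or median centring, 1 without moderation of variances and 7 without the intensity trend. Log2 changes below are the antibody minus the control group ± SE on log2(intensity + 16), which understates the change of dim probe sets, with n = 2 arrays per group.

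**Figure D1:**
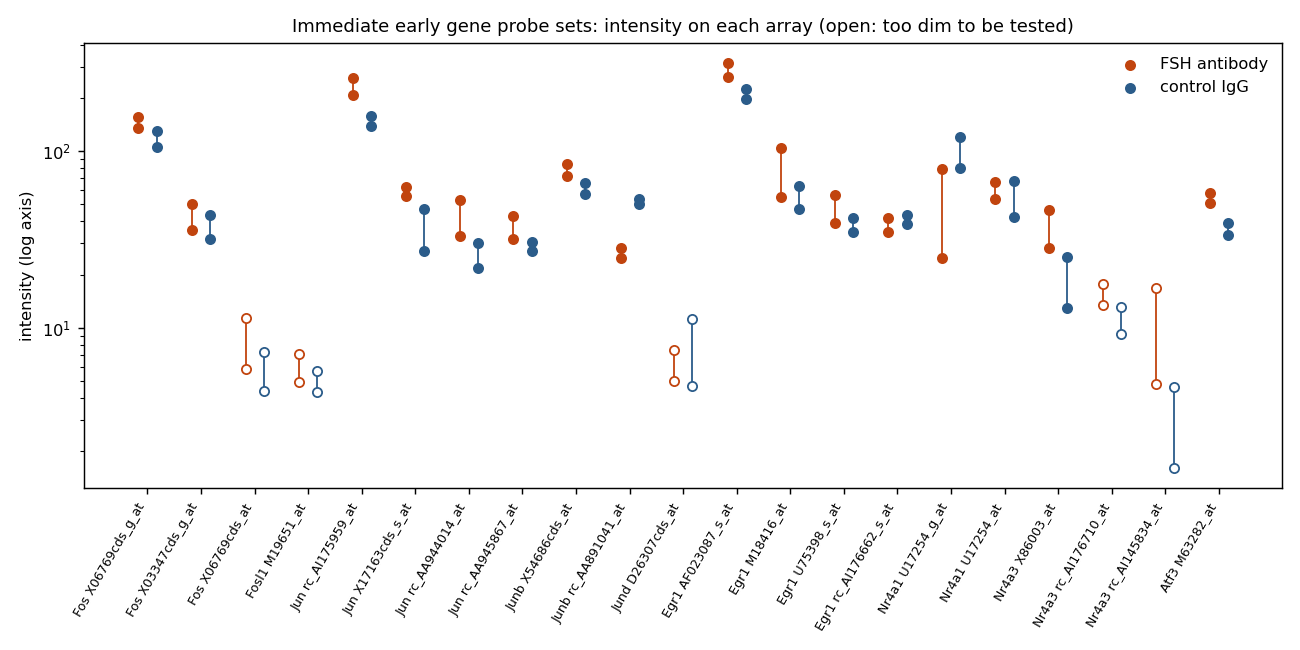
Intensity (log axis) of the 21 probe sets on each array, with antibody arrays in orange at the left of each pair and control arrays in blue at the right. Points are arrays, lines join arrays of a group, and open points mark the 5 probe sets too dim to be tested. Jun rc_AI175959_at, Egr1 AF023087_s_at and Atf3 are higher on both antibody arrays, while Junb rc_AA891041_at is lower on both.

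Jun, the central AP-1 subunit that pairs with Fos proteins, had higher values on all 4 of its tested probe sets. The brightest, rc_AI175959_at, had intensities of 208.4 and 258.7 on the antibody arrays, against 158.1 and 138.1 on the control arrays. Both antibody arrays lay above both control arrays, the ratio of the means was 1.58, and the log2 change of 0.60 ± 0.18 did not pass (95% interval 0.19 to 1.01, unadjusted p = 0.00900 and adjusted p = 0.435 by limma). X17163cds_s_at had 55.9 and 62.3 with the antibody and 46.8 and 27.1 in the controls, a log2 change of 0.53 ± 0.23. The EST-derived rc_AA944014_at had 52.7 and 32.9, against 30.0 and 21.7 in the controls (0.48 ± 0.24), and rc_AA945867_at had 43.0 and 31.7, against 30.6 and 27.3 (0.24 ± 0.21). None of the 4 Jun probe sets overlapped between groups, where 21.9% of all tested probe sets were apart with the antibody higher. All 4 measure the same gene, so they are not independent. Control replicate 2 was the lowest array on each, as on 33.8% of all tested probe sets. The size on each of the 4 changed when single arrays were left out. The brightest, rc_AI175959_at, gave 0.45 without antibody replicate 2 and 0.75 without antibody replicate 1. X17163cds_s_at gave 0.26 without control replicate 2 and 0.80 without control replicate 1. rc_AA944014_at gave 0.23 without antibody replicate 1 and 0.72 without antibody replicate 2, and rc_AA945867_at gave 0.087 and 0.39 in these same settings. Averaged over the 4, Jun gave 0.46 on the log2 scale.

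Junb, the AP-1 subunit that can restrain Jun, was split between its probe sets. X54686cds_at, designed from a coding sequence, had intensities of 72.1 and 85.0 on the antibody arrays and of 65.9 and 57.2 on the control arrays, a log2 change of 0.28 ± 0.18 (adjusted p = 0.752 by limma) that was 0.19 without antibody replicate 2. The EST-derived rc_AA891041_at went the other way, with 28.1 and 24.8 on the antibody arrays and 50.3 and 53.6 on the control arrays. Its arrays were close within each group, its antibody mean was 0.509 of the control mean, and its log2 change of −0.68 ± 0.20 had the smallest adjusted p of all members, 0.353 (95% interval −1.12 to −0.24). The log2 ratio of the coding to the EST probe set was 1.00 and 1.31 on the antibody arrays and 0.30 and 0.07 on the control arrays. These ratios did not overlap between groups, and the 2 changes differed by 0.96, with an exact two-sided permutation p of 0.333, the smallest that 2 arrays against 2 allow. The Fos and Nr4a1 pairs and some Jun and Egr1 pairs also reached that p, so it is not particular to Junb. The direction of Junb is therefore not settled by these arrays.

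Fos, the subunit that cannot form AP-1 without a Jun partner, had no tested probe set that passed. X06769cds_g_at had intensities of 135.8 and 155.5 with the antibody, against 129.6 and 105.8 in the controls, and its change of 0.28 ± 0.18 had a 95% interval of −0.13 to 0.68. Without control replicate 2 it was 0.15. The second tested probe set, X03347cds_g_at, whose annotated sequence record is not the one in its name, had 35.8 and 50.4 with the antibody and 43.3 and 31.9 in the controls. Those groups overlapped (0.14 ± 0.22), and the sign turned to −0.04 without antibody replicate 2 and to −0.02 without control replicate 2. The last Fos probe set, X06769cds_at, was too dim to be tested, with 5.8 and 11.3 with the antibody and 4.4 and 7.3 in the controls.

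The remaining AP-1 genes gave little to measure. Fosl1, which encodes Fra-1, had intensities of 7.1 and 4.9 on the antibody arrays and of 5.7 and 4.3 on the control arrays. Jund, the subunit usually present before stimulation, had 5.0 and 7.5 with the antibody and 11.2 and 4.7 in the controls. Both overlapped between groups and lay far under the filter, so these probe sets do not show whether the genes changed. Atf3, a stress-responsive factor that pairs with Jun, was brighter: M63282_at had 51.1 and 58.0 on the antibody arrays, against 39.3 and 33.6 on the control arrays. Its groups were apart, with a log2 change of 0.43 ± 0.19 (95% interval −0.01 to 0.86, adjusted p = 0.623 by limma).

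Egr1, a zinc finger factor induced by growth factors, had 4 tested probe sets. AF023087_s_at had intensities of 315.6 and 263.1 with the antibody, against 196.6 and 224.1 in the controls. These groups were apart by less than the spread within the antibody group, and the change of 0.43 ± 0.18 did not pass (95% interval 0.03 to 0.83, adjusted p = 0.581 by limma). M18416_at had 104.3 and 54.9 with the antibody and 63.4 and 47.1 in the controls, so its value of 0.38 ± 0.26 rested on antibody replicate 1, and without that array it was 0.0024. U75398_s_at, whose annotated record also differs from its name, had 39.4 and 56.5 with the antibody, against 41.6 and 34.9 in the controls (0.23 ± 0.21), and it gave 0.033 without antibody replicate 2 and 0.42 without antibody replicate 1. rc_AI176662_s_at had 34.6 and 41.7, against 43.7 and 38.8 (−0.08 ± 0.20). Only the first of the 4 had groups that did not overlap.

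The NR4A receptors bind DNA without a known natural hormone and are induced by cyclic AMP, and Nr4a1 is known to activate steroid synthesis genes in Leydig cells. U17254_g_at of Nr4a1 had intensities of 79.5 and 24.9 on the antibody arrays and of 120.9 and 79.7 on the control arrays. The groups were separated by the gap between 79.5 and 79.7 alone, and the change of −0.87 ± 0.35 did not pass (95% interval −1.67 to −0.08, adjusted p = 0.575 by limma). Without antibody replicate 1 it was −1.48, and without antibody replicate 2 it was −0.26, so its size was set by which antibody array was kept. U17254_at, designed from the same sequence record, had 66.4 and 53.7 with the antibody and 67.3 and 42.4 in the controls (0.12 ± 0.22). The log2 ratio of U17254_g_at to U17254_at was 0.21 and −0.77 on the antibody arrays, against 0.72 and 0.71 on the control arrays, with an exact two-sided permutation p of 0.333 for the difference.

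Nr4a3, a further receptor of that family, had 3 probe sets, each with both antibody arrays above both control arrays. X86003_at had intensities of 28.3 and 46.3 on the antibody arrays, against 25.1 and 13.0 on the control arrays, with a ratio of means of 1.96. Its change of 0.61 ± 0.26 did not pass (95% interval 0.01 to 1.20, adjusted p = 0.610 by limma) and was 0.36 without antibody replicate 2 and 0.35 without control replicate 2. Its mean log2 value of 5.41 lay close to the filter level of 5.31. The other two were too dim to be tested, with 17.7 and 13.4, against 9.2 and 13.1 in the controls, on rc_AI176710_at, and with 4.8 and 16.8, against 4.6 and 1.6, on rc_AI145834_at. Separation there means little, since it came down to 13.4 against 13.1 on the first and 4.8 against 4.6 on the second.

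**Figure D2:**
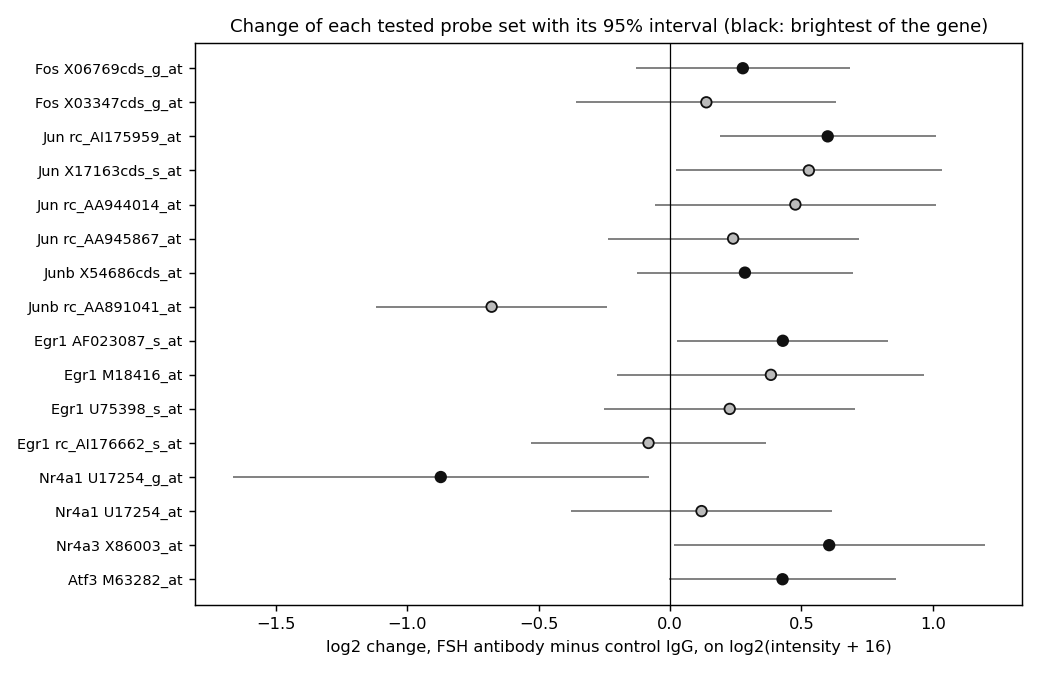
Log2 change of each of the 16 tested probe sets (antibody minus control) with its 95% interval from limma, black for the brightest probe set of a gene. Of the 16, 13 lie above 0, and Junb, Egr1 and Nr4a1 each have probe sets on either side.

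Across the set, 13 of the 16 tested probe sets had a log2 change above 0, beside 55.3% of all tested probe sets. Without the filter it was 17 of 21 members, beside 62.2% of all 8740. Groups did not overlap for 9 of the 16 with the antibody higher, beside 21.9% of all tested, and for 2 of the 16 with the antibody lower, beside 15.5%. The members' counts are not independent, since 4 probe sets measure Jun and 4 measure Egr1. Counted by gene, the brightest probe set was higher in 6 of 7 genes, and the mean over tested probe sets in 5 of 7, with Junb at −0.20 and Nr4a1 at −0.38. The median change over the 7 genes was 0.43 by the brightest probe set and 0.24 by the mean, beside 0.03 over all 3164 genes with a tested probe set.

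**Figure D3:**
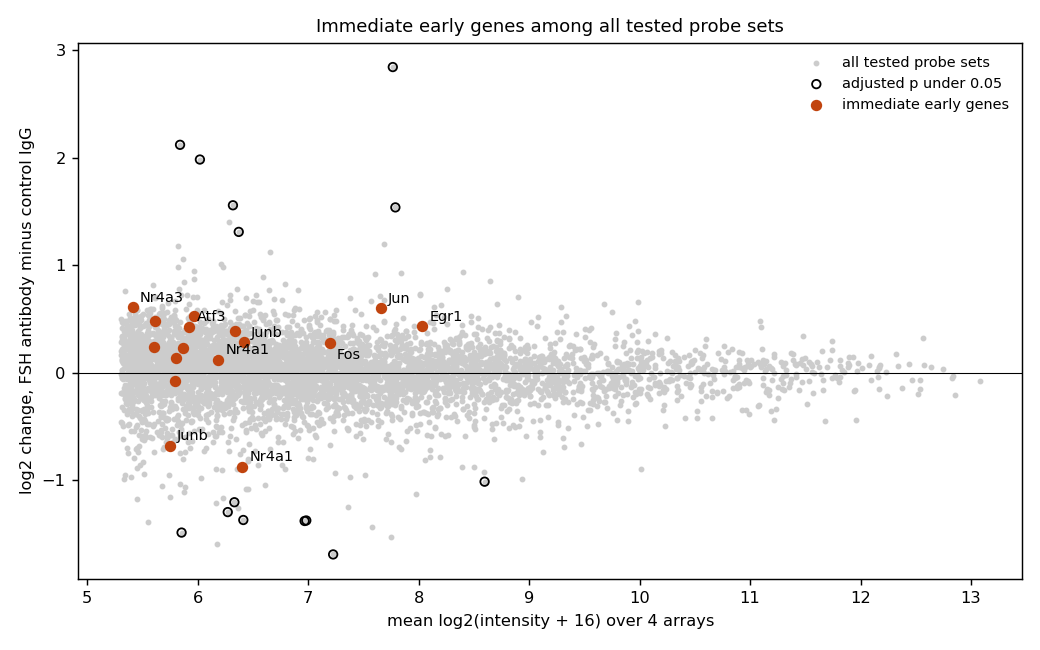
Log2 change against mean log2(intensity + 16) for all 5244 tested probe sets in grey, with the 14 called ones circled and the immediate early genes in orange. The members lie between −0.87 and 0.61, inside the spread of uncalled probe sets.

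The members did not follow the treatment evenly. Antibody replicate 2 held the highest value for 8 of the 16 tested probe sets (30.5% over all tested) and antibody replicate 1 for 4 (24.9%). Control replicate 2 held the lowest value for 12 of the 16, while over all tested probe sets it held the lowest for 33.8%. Fos, Junb (on X54686cds_at), Atf3, Nr4a3 and the brightest Jun probe set were highest on antibody replicate 2, and the brightest 2 of Egr1 on antibody replicate 1. Without control replicate 2, 11 of the 16 changes were above 0 and the median over genes was 0.35. Control replicate 2 also had the lowest median intensity of the 4 arrays, 36.5, where the others lay between 38.8 and 40.4, and the smallest beta-actin 3′ to 5′ log2 ratio, 0.86, where the others lay between 1.10 and 1.20. The part of these array differences in the members' values was not tested.

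None of the other early response genes was called. Of 50 listed, 35 were on the array and 29 were tested. Their median change was 0.20, with 21 above 0 and 8 below. Id3, an inhibitor of helix-loop-helix factors, had intensities of 225.7 and 398.1 with the antibody, against 187.2 and 120.4 in the controls (0.93 ± 0.28, adjusted p = 0.413 by limma). Dusp6, the phosphatase that switches off ERK kinases, had 44.3 and 25.3, against 54.2 and 61.2 (−0.56 ± 0.23, adjusted p = 0.575). Among 18 tested upstream kinases and factors, 0 were called and the median was 0.08. The kinase Map2k2, which activates ERK, gave 0.42 ± 0.17, and the cyclic AMP-responsive modulator Crem gave −0.34 ± 0.17, neither passing.

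Among 7 tested partners and inhibitors of these factors, with a median of 0.26, 0 were called. Trib3, a pseudokinase induced by stress, had 20.8 and 16.1 with the antibody, against 43.3 and 36.8 in the controls (−0.70 ± 0.21). Rxrb, a retinoid X receptor, the family whose members can pair with Nr4a1, had 115.7 and 120.6, against 79.5 and 72.2 (0.55 ± 0.17). There were 17 tested genes proposed in the literature as targets of AP-1, EGR1 or NR4A factors, with a median of 0.05. Of these, 9 lay above 0 and 8 below, while 1 was called lower and 0 were called higher. That gene was Star, which moves cholesterol into mitochondria, with 25.5 and 12.8 on the antibody arrays, against 75.9 and 86.2 on the control arrays (−1.49 ± 0.23, adjusted p = 0.0423 by limma). Another Star probe set, AB001349_at, had a change of −1.38 and did not pass (adjusted p = 0.0655 by limma). With quantile normalization, with no filter, without moderation and without either control array, no probe set was called, Star included. Of 9 tested heat shock and stress genes 0 were called, 4 lay above 0 and the median was −0.07. The chaperone Hsph1 gave −0.33 ± 0.18 and the small heat shock protein Hspb1 gave −0.21 ± 0.36.

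**Figure D4:**
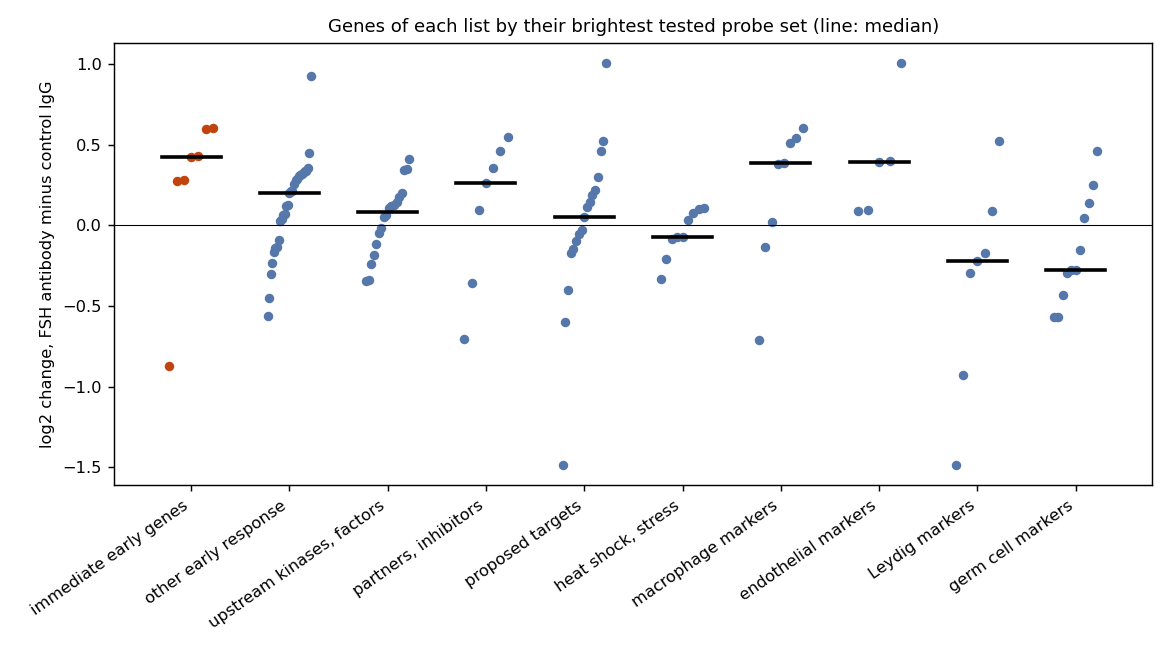
Log2 change (antibody minus control) of each gene by its brightest tested probe set, for the immediate early genes in orange and for related and cell type marker lists in blue, with a line at each median. The median is 0.43 for the immediate early genes and 0.20 for other early response genes.

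Markers of the cell types of the testis were set beside these values. Sums below are over all probe sets of a list, so a gene with several probe sets counts several times and a bright gene weighs most. Over the 16 probe sets of 9 endothelial markers on the array (of 12 listed), the sums were 492.1 and 638.9 on the antibody arrays, against 386.4 and 404.7 on the control arrays. Changes lay above 0 for 5 of 5 tested, beside 1764 of all 3164 tested genes, and 0 were called. Edn1 had the largest, 1.01 (adjusted p = 0.0655 by limma), and the others lay between 0.09 and 0.40. Over the 23 probe sets of 11 of 14 macrophage and immune markers the sums were 867.6 and 1264.7 with the antibody, against 771.2 and 859.5 in the controls, and 6 of 8 tested lay above 0, with 0 called. Those with an unadjusted p under 0.05 were C1qb at −0.71, Lyz2 at 0.60 and RT1-Ba at 0.51 (limma adjusted p from 0.485 to 0.575). Over the 15 probe sets of 7 of 9 Leydig cell markers the sums were 2769.2 and 2984.9, against 3643.4 and 3676.4, with 2 of 7 tested above 0 and Star called lower. Uncalled Leydig markers with an unadjusted p under 0.05 lay on both sides. Fdx1 was at −0.93 and Cyp11a1 at 0.52 (adjusted p = 0.116 and 0.575 by limma). Germ cell markers (13 probe sets of 12 of 14) differed more within groups than between them, with 2117.6 and 1470.9 with the antibody and 1656.3 and 2751.1 in the controls. Over the 18 probe sets of 10 of 15 Sertoli cell markers the sums were 11445.2 and 12203 with the antibody, against 12317.4 and 12345.7 in the controls, with 6 of 10 tested above 0 and 0 called. The Sertoli sum was mostly Clu, with 6439.6 and 7459.2 with the antibody and 6776.2 and 6770 in the controls, and single markers lay on both sides. At an unadjusted p under 0.05 the changes were −1.43 for Aqp8, −0.90 for Inha and −0.66 for Shbg on the lower side and 0.56 for Ctsl and 0.52 for Amh on the higher side (limma adjusted p from 0.0955 to 0.437). Muscle and myoid markers (14 probe sets of 8 of 9) summed to 6193.6 and 4646.5, against 5467.6 and 5852.2, with 0 of 7 tested called. Erythroid markers (7 probe sets of 5 of 8) summed to 2039.9 and 2349.1, against 2201.5 and 3722, with Alas2, the erythroid enzyme of heme synthesis, called lower (−1.38 ± 0.21, adjusted p = 0.0423 by limma). Like Star, it had no call in the alternatives in which no probe set was called. No probe set of these 7 lists was at 0 on any array. The part of these cell types in the members' values was not tested.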

How the data were processed

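RNA from 4 testis samples was labelled with biotin and hybridised to Affymetrix arrays, per the labels' protocols. The authors deposited a linear intensity for each probe set. Which software made it, with what background correction, is not given in the labels used here. A mean that leaves out 2% of probe sets at each end came to 125 on every array, so the arrays were brought to 1 common level before deposit. Detection calls were not used here.

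Of 8799 probe sets, 59 controls were left out. Symbols came from the platform annotation (1 symbol for 7018 probe sets, several for 308, none for 1473), updated by Entrez identifier with a RefSeq table of assembly GRCr8 for the lists. A constant of 16 was added before taking log2. The 40th percentile of the mean log2 values (5.31) was the lower limit for testing, which left 5244 probe sets. The fit used lmFit and eBayes with an intensity trend (limma 3.58.1, R 4.3.3), and two-sided p-values were adjusted by Benjamini-Hochberg over all tested probe sets, with a threshold of 0.05. The code was tested on simulated data. A gene in a list stands by its brightest tested probe set.

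The members and lists were chosen with earlier results of these data known, so list counts and medians are descriptions. Every member probe set is reported. Of other lists, called genes are named, or otherwise the 2 genes with the smallest p. Edn1, next to Star by p among the proposed targets, is named as well. For cell type markers counts and sums are given, and genes at an unadjusted p under 0.05 are named. Clu is named for its share of the Sertoli sum. Alternatives were quantile normalization, median centring, a constant of 1 or 64, no filter or the 60th percentile, no trend, no moderation, the replicate block, an unadjusted p, averaging each gene's probe sets and leaving out each array. The number of arrays limits the precision.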

Additional observations from a re-analysis of the deposited data

How the results depend on the processing

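Of the 16 tested immediate early gene probe sets, 13 kept their direction in every alternative in which they were tested (6 of the 16 at the 60th percentile filter). The exceptions were Egr1 rc_AI176662_s_at (−0.18 to 0.013), Fos X03347cds_g_at (−0.041 to 0.32, negative without antibody replicate 2 and at −0.016 without control replicate 2) and Nr4a1 U17254_at (−0.14 without control replicate 2 and −0.00098 without antibody replicate 1, to 0.38). The median over genes stayed between 0.24 and 0.46. By the adjusted p no member was called in any alternative that kept 2 arrays per group. The exception, Nr4a1 U17254_g_at without antibody replicate 1, came from a fit with a lone antibody array. That fit leaves out the spread between the antibody arrays. An unadjusted p under 0.05 gave 6 member calls and 425 over all probe sets.

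Against 14 calls over all probe sets, 0 were made with quantile normalization, 0 with no filter, 0 when variances were not moderated and 4 with median centring. Unadjusted p-values under 0.05 numbered 424, 702, 352 and 408 in these limma fits. Among the member probe sets they numbered 3, 3 (of 21 without the filter), 1 and 3, against 6 of 16 in the main fit. Leaving out 1 array gave 0 to 151 calls, with 0 without either control array (370 and 269 at an unadjusted p under 0.05). The lone array left is assumed to vary like the other group. The arrays share only a replicate number (same-numbered deviations from the group means correlated at 0.0024 across probe sets), and the replicate block gave 39 calls, none of them a member (smallest member adjusted p 0.0957, Nr4a1 U17254_g_at). The cause of these changes was not tested, beyond the number of probe sets or arrays that each alternative removes. Signal over background cannot be given without detection calls, which limits what dim probe sets show.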
